A study of Mus musculus with 10 samples.

Results

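The RGK family comprises 4 Ras-related small GTPases in the mouse, encoded by *Rrad* (RAD), *Gem*, *Rem1* and *Rem2*, and its members were taken from the count table by gene symbol. The table holds 60676 genes, 13453 passed the filter on low counts, and 3 of the 4 RGK genes were among these, since *Rem2* had no count in any mouse. RNA from the apical part of the ventricles was sequenced from 5 MLPKO and 5 MLPKO-cRADKO mice, with a library per mouse. Mice of both genotypes lacked muscle LIM protein, the product of *Csrp3*, carried floxed *Rrad* alleles and received 1 intraperitoneal dose of tamoxifen (100 mg per kg) when 10 weeks old. The MLPKO-cRADKO mice carried in addition MYH6-MerCreMer, a tamoxifen-activated Cre recombinase that the alpha-myosin heavy chain promoter restricts to cardiomyocytes, so that *Rrad* was targeted in these cells and not in the other cells of the tissue. The MLPKO mice carried no Cre, so presence of Cre and loss of RAD cannot be told apart. The hearts were taken 1 month after tamoxifen. The labels give an age of 16 weeks, which is later than 10 weeks plus 1 month. The paper gives a lower age for the sequenced mice and describes them as male.

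RGK proteins differ from other Ras proteins in that they bind the beta subunits of voltage-gated calcium channels and hold the channel current down. RAD is an RGK protein of the cardiomyocyte. Phosphorylation of RAD by protein kinase A during beta-adrenergic stimulation releases the L-type channel from this restraint. GEM is known as a protein induced by mitogens in lymphocytes and other cells, REM1 is expressed in muscle tissues, and REM2 is best known from neurons and endocrine cells. Calmodulin and 14-3-3 proteins bind RGK proteins and influence where in the cell they lie.

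*Rrad* (ENSMUSG00000031880) lies on the minus strand at chr8:105354695-105357990 of GRCm39, the build of the counts. *Gem* (ENSMUSG00000028214) lies on the plus strand at chr4:11704343-11714993, *Rem1* (ENSMUSG00000000359) on the plus strand at chr2:152468819-152487694 and *Rem2* (ENSMUSG00000022176) on the plus strand at chr14:54713557-54717892. The annotated exons of each gene, merged over its transcripts, span 1757 bases for *Rrad*, 2582 bases for *Gem*, 10816 bases for *Rem1* and 2255 bases for *Rem2*. The longest transcript measures 5245 bases for *Rem1* and 2355 bases for *Gem*, so the level of *Rem1* per length depends on which length is used.

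The 250 bases before the start of *Rem1* and of *Rem2* are shown because one of these genes was counted in every ventricle and the other in none. They come from RefSeq on GRCm38.p6, an older build than that of the counts, and 2 of the 4 genes matched the RefSeq promoter table. *Rrad* and *Gem* were not matched. The *Rem1* sequence is the plus strand of chr2:152626758-152627007 and the *Rem2* sequence is the plus strand of chr14:54475850-54476099, both written 5′ to 3′, and capitals mark the GC box, searched as GGGCGG on both strands.
Rem1: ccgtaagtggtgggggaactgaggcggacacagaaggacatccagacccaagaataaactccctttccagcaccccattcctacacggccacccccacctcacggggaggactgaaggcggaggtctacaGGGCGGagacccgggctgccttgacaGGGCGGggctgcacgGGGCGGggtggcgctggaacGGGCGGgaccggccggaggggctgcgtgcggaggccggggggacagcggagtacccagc
Rem2: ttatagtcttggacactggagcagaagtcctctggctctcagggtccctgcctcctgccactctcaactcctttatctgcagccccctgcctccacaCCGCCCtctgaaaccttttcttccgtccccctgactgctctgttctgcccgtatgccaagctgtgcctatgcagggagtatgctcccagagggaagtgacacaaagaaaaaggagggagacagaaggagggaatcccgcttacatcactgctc
The *Rem1* window held 4 GC boxes and 19 CpG dinucleotides, and 69.2% of its bases were G or C. The *Rem2* window held 1 GC box, which reads on the minus strand, and 4 CpG dinucleotides, with 55.6% G or C. Over all 32851 RefSeq promoter windows of this length, 32.7% held at least 1 GC box, the median share of G and C was 52.4% and the median number of CpG dinucleotides was 6. A match describes the letters of the window and is no measurement of a bound factor.

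Libraries held 33457406 to 49965101 counts, and low counts were mostly even, with 73.7% to 80.3% of the counts from 1 to 20 being even numbers in each library. Normalized counts below are counts scaled by TMM (trimmed mean of M values) library sizes, and differences between the genotypes were tested in edgeR by quasi-likelihood, with p-values adjusted after Benjamini and Hochberg over all 13453 genes. A gene was called at an adjusted p under 0.05. A log2 fold change below 0 is a lower level in MLPKO-cRADKO. MLPKO mouse 2 lay far above the rest of its group in several genes named below, so the results for the RGK genes are also given without it. MLPKO-cRADKO mouse 1 stood apart in the atrial markers and MLPKO-cRADKO mouse 3 in the adipocyte markers, and results without each of these mice are given beside those markers. The mice are separate animals, and each ± is an SD over 5 mice of a genotype.

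*Csrp3* was counted in all 10 mice, with normalized counts from 41726 to 134796 in MLPKO and from 28553 to 48663 in MLPKO-cRADKO. The genotypes differed by −1.08 on the log2 scale (SE 0.29, edgeR adjusted p = 0.0667). DESeq2 called *Csrp3* (adjusted p = 0.0362), and edgeR did without MLPKO mouse 4 (adjusted p = 0.0313). These values do not show by themselves that the gene was inactivated in either genotype.

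*Rrad*, the targeted gene, was the only RGK gene with an abundant transcript, and its lower mean in MLPKO-cRADKO was not called by any tool. In MLPKO, mice 1 to 5 had normalized *Rrad* counts of 10849, 11066, 5774, 6751 and 11644. In MLPKO-cRADKO, mice 1 to 5 had normalized *Rrad* counts of 8122, 5562, 8361, 6049 and 7258. MLPKO mice 1, 2 and 5 lay above every MLPKO-cRADKO mouse, whereas MLPKO mice 3 and 4 lay inside the range of the other genotype. The means were 9217 ± 2735 and 7070.3 ± 1238, a log2 fold change of −0.38 (SE 0.20, edgeR adjusted p = 0.290). The 95% interval of the fold change in this fit ran from 56.9% to 103% of the MLPKO level. A loss of more than about 43.1% of all reads assigned to the gene lies outside it. Without MLPKO-cRADKO mouse 1 the lower end lay at −0.91 on the log2 scale, against −0.81 in this fit. Without MLPKO mouse 2 the genotypes differed by −0.31 on the log2 scale (edgeR adjusted p = 0.416). DESeq2, the tool of the study, gave an adjusted p of 0.207, an unadjusted p of 0.0459 and a 95% interval of −0.77 to −0.007. The edgeR interval also lay below 0 without MLPKO mouse 3 (−0.87 to −0.14) and without MLPKO mouse 4 (−0.90 to −0.05). It crossed 0 in every other fit.

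The *Rrad* value sums all reads assigned to the gene, so floxed and remaining exons are not separated, and it pools cardiomyocytes with cells that carry no active Cre. It therefore does not check the genotype of a single mouse. In bulk tissue, fewer cells of a type and less RNA per cell cannot be told apart. The coefficient of variation of *Rrad* was 29.7% in MLPKO and 17.5% in MLPKO-cRADKO.

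*Gem* had the opposite direction. The normalized *Gem* counts of MLPKO mice 1 to 5 were 91.7, 175.5, 126.5, 102.5 and 127.7. The normalized *Gem* counts of MLPKO-cRADKO mice 1 to 5 were 216, 149, 186, 176 and 205. MLPKO mouse 2 was the only MLPKO mouse inside the range of the other genotype, and the other 4 lay below every MLPKO-cRADKO mouse. The means were 125 ± 32.3 and 187 ± 26.1, a log2 fold change of 0.58 (SE 0.18), and the 95% interval ran from 114% to 196% of the MLPKO level. The edgeR adjusted p was 0.0928, so *Gem* was not among the 127 genes, or 0.944% of those tested, that were called higher in MLPKO-cRADKO.

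The call for *Gem* turned on the tool and on a single mouse. DESeq2 called *Gem* at an adjusted p of 0.0261 with a log2 fold change of 0.58, where it called 3.81% of the tested genes higher and 9.65% in either direction. Without MLPKO mouse 2 the log2 fold change was 0.73 and the edgeR adjusted p was 0.0377, where 0.907% of the genes were called higher and 2.58% in either direction. Leaving out any other mouse kept *Gem* above an adjusted p of 0.05, and over all alternatives the adjusted p ranged from 0.0261 to 0.182. The raw counts behind these values were small, from 93 to 155 in MLPKO and from 165 to 219 in MLPKO-cRADKO. Raw counts are not scaled to library size, and the normalized counts overlapped through MLPKO mouse 2.

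*Rem1* did not differ detectably. Its normalized counts in MLPKO mice 1 to 5 were 245, 181, 211, 220 and 162. Its normalized counts in MLPKO-cRADKO mice 1 to 5 were 221, 244, 204, 172 and 246. The genotypes covered nearly the same range, with means of 204 ± 32.6 and 218 ± 30.6. *Rem1* had a log2 fold change of 0.09 (SE 0.14, 95% interval −0.22 to 0.40, edgeR adjusted p = 0.754), and of 0.06 without MLPKO mouse 2.

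*Rem2* had a count of 0 in each of the 10 libraries. With 3 counts as the upper limit that a count of 0 allows, counting error only, its level was at most 0.0263 to 0.0422 CPM per kilobase of exon, depending on the library, where CPM is a count scaled to a fixed library size. Most low counts were even, so a fragment may have been counted for both of its reads, which was not tested. The limit would then be 6 counts, or 0.0525 to 0.0843 CPM per kilobase. Of 21690 protein-coding genes with values in the table, 4588, or 21.2%, were likewise at 0 in all 10 libraries. *Lrp10*, the nearest tested gene at 3667 bases from *Rem2*, had normalized counts of 2726 ± 161 in MLPKO and 2597 ± 176 in MLPKO-cRADKO.

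**Figure D1:**
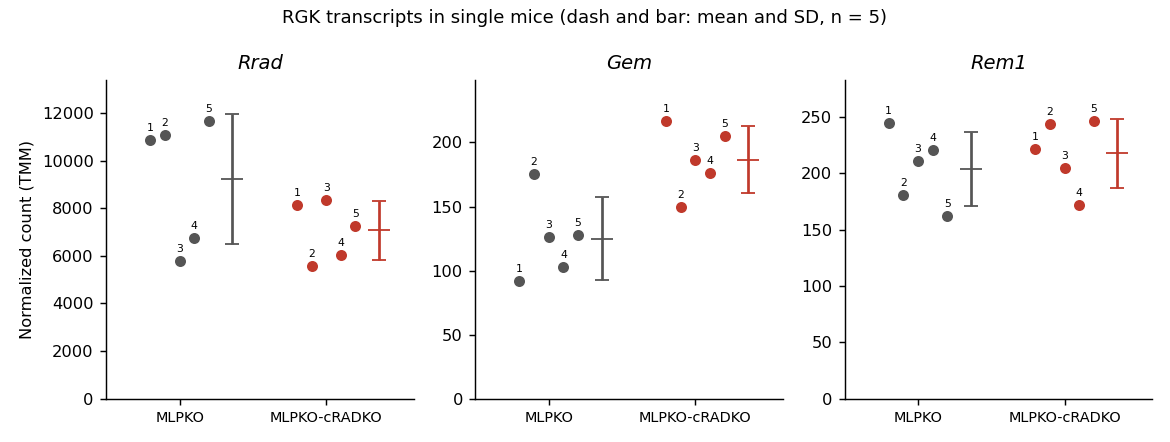
Normalized counts of Rrad, Gem and Rem1 in each mouse by genotype, with the mean and SD of 5 mice. Each panel has its own vertical axis. The Rrad and Rem1 points of the genotypes overlap, and the Gem points overlap only through MLPKO mouse 2 at 175.5. Rem2, at 0 in every mouse, is not drawn.

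Compared per kilobase of merged exons, the RGK genes were ordered *Rrad*, *Gem*, *Rem1* and *Rem2* in every mouse. *Rrad* stood at 127 ± 37.6 CPM per kilobase in MLPKO and 97.3 ± 17.0 in MLPKO-cRADKO, higher than 98.8% and 98.4% of the tested genes with a length. *Gem* stood at 1.17 ± 0.303 and 1.75 ± 0.244 CPM per kilobase, above 34.1% and 42.8% of those genes. *Rem1* stood at 0.456 ± 0.0728 and 0.487 ± 0.0685 CPM per kilobase, above 18.7% and 18.8% of those genes. No neighbours in this order overlapped across mice with this length. With the longest transcript as length, *Gem* in MLPKO (0.942 to 1.80) and *Rem1* in MLPKO (0.749 to 1.13) overlapped, so their order in MLPKO rests on the choice of length. Against the limit for *Rem2*, *Rrad* was at least 2620-fold to at least 5463-fold higher per kilobase, depending on the library, or at least 1310-fold to at least 2731-fold with the limit at 6 counts.

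**Figure D2:**
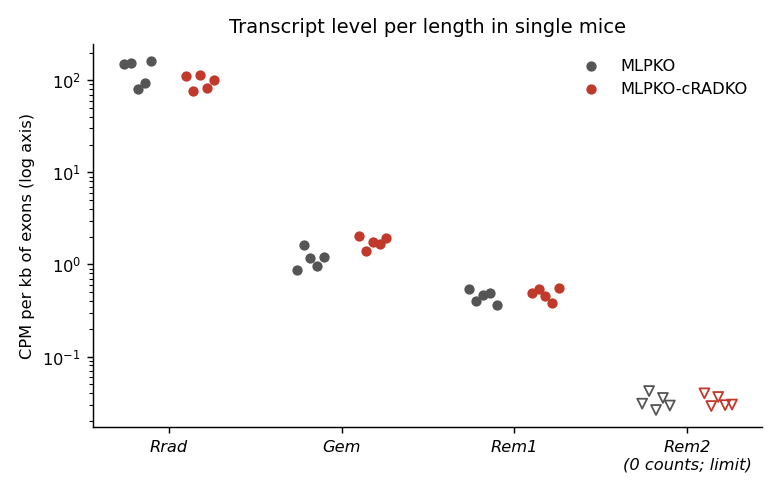
Level of each RGK gene in each mouse in CPM per kilobase of merged exons, on a log axis; for Rem2, which had 0 counts, the marks show the limit that 3 counts would give. Rrad lies at 76.6 to 160, Gem at 0.859 to 2.03 and Rem1 at 0.363 to 0.550, and the Rem2 limits lie at 0.0263 to 0.0422.

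Compared within each mouse, the ratio of *Rrad* to *Gem* was lower in MLPKO-cRADKO, although edgeR called neither gene in all mice. The log2 ratio of *Rrad* to *Gem*, taken from CPM with a prior count of 2, was 6.86, 5.96, 5.49, 6.01 and 6.49 in MLPKO mice 1 to 5. In MLPKO-cRADKO mice 1 to 5 this ratio was 5.22, 5.20, 5.47, 5.09 and 5.13. Every MLPKO mouse had a higher ratio than every MLPKO-cRADKO mouse, although MLPKO mouse 3 and MLPKO-cRADKO mouse 3 lay only 0.02 apart. The means were 6.16 ± 0.52 and 5.22 ± 0.15, a difference of −0.94, which makes the ratio 0.521-fold that of MLPKO. A two-sided exact permutation test over every division of the 10 mice into 5 and 5 gave p = 0.00794, the smallest p this design allows, and 0.0159 after Benjamini-Hochberg adjustment over 2 ratios. Leaving out each mouse gave differences from −1.11 to −0.77, and −0.99 without MLPKO mouse 2, with exact p between 0.00794 and 0.0159. Normalized counts of single genes did not overlap between the genotypes in 6.62% of those tested. No such share was computed for ratios of other gene pairs. No ratio to *Rem2* could be formed.

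The ratio of *Rrad* to *Rem1* overlapped between the genotypes, at 5.44 ± 0.60 and 5.00 ± 0.33 on the log2 scale. The difference was −0.44 (two-sided exact permutation test, p = 0.198, and 0.198 adjusted over the 2 ratios). Of the summed RGK signal per kilobase, *Gem* made up 0.970% ± 0.341 in MLPKO and 1.77% ± 0.171 in MLPKO-cRADKO, with no overlap (two-sided exact permutation test, p = 0.00794). *Rrad* made up 98.6% ± 0.457 and 97.7% ± 0.242, a difference of −0.91 percentage points with overlapping ranges (two-sided exact permutation test, p = 0.0159). *Rem1* made up 0.390% ± 0.157 and 0.501% ± 0.121 (two-sided exact permutation test, p = 0.246). The sum of the 4 genes, which is almost wholly *Rrad*, was 129 ± 37.7 and 99.6 ± 17.2 CPM per kilobase (two-sided exact permutation test, p = 0.151). The shares and the ratio to *Gem* are built from the same counts and are not separate evidence.

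**Figure D3:**
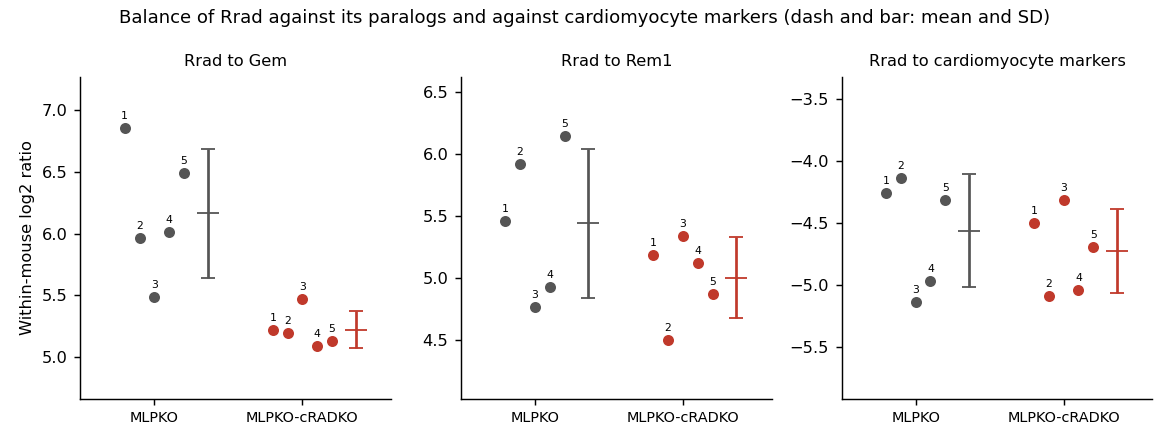
Within-mouse log2 ratios of Rrad to Gem, to Rem1 and to the cardiomyocyte markers by genotype, one point per mouse with the mean and SD. The Rrad to Gem ratios do not overlap (5.49 to 6.86 in MLPKO, 5.09 to 5.47 in MLPKO-cRADKO), whereas the other ratios do.

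All tested endothelial and macrophage markers and most smooth muscle and pericyte markers had log2 fold changes above 0, whereas fibroblast markers lay on both sides. Over all tested genes, edgeR called 0.944% higher and 1.80% lower, 21.6% had an unadjusted p under 0.05, and DESeq2 called 9.65%. Of the 7 endothelial markers, 7 had a log2 fold change above 0, and edgeR called 1 (*Tek*, an angiopoietin receptor, 0.32, SE 0.05, edgeR adjusted p = 0.0196). In this list 6 had an unadjusted p under 0.05, DESeq2 called 3 and limma-voom called 1. Their summed level was 810 to 940 CPM in MLPKO and 963 to 1099 in MLPKO-cRADKO, without overlap. Of 7 tested smooth muscle and pericyte markers, 2 were called higher, *Acta2* (smooth muscle actin, 1.24) and *Rgs5* (a pericyte regulator of G protein signalling, 0.44), which kept their calls in 4 and 2 of the 10 fits that left out a mouse, and limma-voom did not call *Acta2*. *Cnn1*, the smooth muscle protein calponin, singled out after its values were seen, had the largest log2 fold change of that list in size (−2.17, edgeR adjusted p = 0.103), and −0.87 without MLPKO mouse 2. Of these 7 markers, 5 had a log2 fold change above 0, 4 had an unadjusted p under 0.05 and DESeq2 called 2. The summed level of the list was 802 to 1014 and 1024 to 1192. Of 8 macrophage markers, 8 had a log2 fold change above 0 with a median of 0.45 and a summed level of 123 to 177 and 153 to 276. None of the 8 macrophage markers was called by edgeR, 8 had an unadjusted p under 0.05, DESeq2 called 3 and limma-voom called 0. Of 7 fibroblast markers, 4 had a log2 fold change below 0, 1 was called higher (*Dpt*, a matrix protein, 0.93, edgeR adjusted p = 0.00665), and the summed level overlapped, at 1088 to 1623 and 944 to 1649. No marker of these lists was at 0 in every library, but *Tagln*, a smooth muscle marker, did not pass the filter and was not tested. The part of these cell types in the *Gem* and *Rrad* values was not tested.

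The mean level of the cardiomyocyte markers was lower in MLPKO-cRADKO. Among all tested genes, edgeR called 1.80% lower and 21.6% had an unadjusted p under 0.05. Of 10 cardiomyocyte markers, 8 had a log2 fold change below 0, 4 had an unadjusted p under 0.05 and 1 was called (*Tnnt2*, cardiac troponin T, −0.57, SE 0.09, edgeR adjusted p = 0.0185). Their mean log2 level was 12.31 ± 0.09 in MLPKO and 12.13 ± 0.10 in MLPKO-cRADKO, a difference of −0.18 (two-sided exact permutation test, p = 0.0159), and their summed level was 82702 to 93343 and 67885 to 83522 CPM. Set against this mean, *Rrad* stood at −4.56 ± 0.46 in MLPKO and −4.73 ± 0.34 in MLPKO-cRADKO on the log2 scale. The difference of −0.17 was within the spread of the mice (two-sided exact permutation test, p = 0.516), and was −0.06 without MLPKO mouse 2. Markers of Schwann cells (4 tested), skeletal muscle (3 tested) and atrium (2 tested) had no call by edgeR, DESeq2 or limma-voom and no unadjusted p under 0.05. The 4 Schwann cell markers all had a log2 fold change below 0, with a median of −0.36. *Myl4* and *Myl7*, atrial myosin light chains singled out after their values were seen, had normalized counts of 810 and 188 in MLPKO-cRADKO mouse 1, beside 66.4 to 112 and 13.5 to 26.2 in the rest of that group and 58.4 to 219 and 26.8 to 77.3 in MLPKO. That mouse also had the highest normalized *Gem* count, and without it *Gem* had a log2 fold change of 0.52 (edgeR adjusted p = 0.156), *Rrad* one of −0.44 (edgeR adjusted p = 0.281), and the log2 ratio of *Rrad* to *Gem* differed by −0.94. *Myh4*, a fast skeletal myosin, was at 0 in all libraries, and no adipocyte marker passed the filter, with a summed level of 0.0533 to 0.662 CPM in MLPKO and 0 to 78.2 in MLPKO-cRADKO, where only mouse 3 was above 0.601. Without that mouse *Gem* had a log2 fold change of 0.59 (edgeR adjusted p = 0.149) and *Rrad* one of −0.44 (edgeR adjusted p = 0.294).

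Most genes for the calcium channel subunits on which RGK proteins act had lower means in MLPKO-cRADKO. Of 14 channel genes, 11 were tested, 9 had a log2 fold change below 0, and 2 were called lower where 1.80% of all tested genes were. The list had a median log2 fold change of −0.23, beside 0.01 over all tested genes. The cardiomyocyte markers had a median of −0.18, with 8 of 10 below 0. Whether these shifts are related was not tested. *Cacna2d1*, the main cardiac alpha2-delta subunit, fell from 14747 ± 2939 to 8419 ± 1962 normalized counts, with no overlap between 11373 to 19299 in MLPKO and 5667 to 10925 in MLPKO-cRADKO (log2 fold change −0.81, SE 0.17, edgeR adjusted p = 0.0334). *Cacnb1*, a beta subunit gene and thus a direct RGK partner, fell from 532 ± 82.0 to 366 ± 39.2 without overlap (log2 fold change −0.54, SE 0.12, edgeR adjusted p = 0.0357). Normalized counts did not overlap between the genotypes in 6.62% of all tested genes.

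*Cacnb2*, the beta subunit gene most used in the heart, and *Cacna1c*, the pore of the L-type channel, were singled out after their values were seen, as was *Cacna2d2*, another alpha2-delta subunit gene. *Cacnb2* had normalized counts of 2790 ± 224 and 2129 ± 395, overlapping, with a log2 fold change of −0.39 (SE 0.12) that edgeR did not call (adjusted p = 0.0841) and DESeq2 did (adjusted p = 0.0255, where it called 5.84% of the genes lower). *Cacna1c* had 15140 ± 2075 and 12167 ± 1170 normalized counts, a log2 fold change of −0.32 that edgeR did not call (adjusted p = 0.102) and DESeq2 did (adjusted p = 0.0391). *Cacna2d2* had 68.0 ± 15.8 and 111.6 ± 15.1 normalized counts without overlap, a log2 fold change of 0.71 that edgeR did not call (adjusted p = 0.0609) and DESeq2 did (adjusted p = 0.00883). The call for *Cacna2d1* held in 5 of the 10 fits that left out a mouse, and that for *Cacnb1* in 1 of 10. Without MLPKO mouse 2, where 1.67% of the genes were called lower, *Cacna2d1* had an edgeR adjusted p of 0.0442, *Cacnb1* of 0.0509 and *Cacna1c* of 0.0350.

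Kinases and adaptors that act on RGK proteins lay on both sides of 0. Of 21 such genes, protein kinase A subunits and anchors, calmodulins, calmodulin kinases and 14-3-3 proteins, all were tested, 11 had a log2 fold change above 0 and 10 below, with a median of 0.00402. The only edgeR call, where 1.80% of all tested genes were called lower, was *Camk2b*, a calmodulin kinase II subunit, which fell from 1359 ± 155 to 1007 ± 112 normalized counts without overlap (log2 fold change −0.43, SE 0.10, edgeR adjusted p = 0.0397). It kept this call in 2 of the 10 fits that left out a mouse. Of the 21 genes, 6 had an unadjusted p under 0.05 and DESeq2 called 4, beside 21.6% and 9.65% of all tested genes. Besides *Camk2b*, DESeq2 called the protein kinase A subunits *Prkaca* (adjusted p = 0.0134), *Prkar2a* (adjusted p = 0.0229) and *Prkar1a* (adjusted p = 0.0487), all lower. They were singled out after their values were seen. *Prkar1b* and *Prkar2b* had log2 fold changes above 0 and *Prkacb* one below, without a call.

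Among 31 other genes for Ras family GTPases, 27 were tested and edgeR called 2, both lower, where it called 2.74% of all tested genes in either direction. *Rras2*, a relative of R-Ras, fell from 5462 ± 2355 to 2727 ± 255 normalized counts without overlap (edgeR adjusted p = 0.0374). Without MLPKO mouse 2 it fell by 0.70 on the log2 scale. *Nkiras1*, an inhibitor of NF-kappaB signalling, fell from 1465 ± 246 to 995 ± 85.0 without overlap (log2 fold change −0.56, SE 0.11, edgeR adjusted p = 0.0246). Without each mouse in turn, *Rras2* kept its call in 3 of 10 fits and *Nkiras1* in 6 of 10. Of the 27 genes, 8 had an unadjusted p under 0.05 and DESeq2 called 5, beside 21.6% and 9.65% of all tested genes. Among those called by DESeq2, *Rap2a* was higher (log2 fold change 0.24, DESeq2 adjusted p = 0.0185), whereas *Rap2c* and *Rasl11b* were lower. These were singled out after their values were seen. The median of the list was −0.02, and *Rit2* and *Eras* were, like *Rem2*, at 0 in all 10 libraries.

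Immediate early genes were listed because *Gem* is inducible by mitogens, and p53 targets because *Rrad* is known as one. None of the 19 tested immediate early genes was called by edgeR, 3 had an unadjusted p under 0.05, DESeq2 called 2 and limma-voom called 0, where 21.6% of all tested genes had such a p and DESeq2 called 9.65%. The members of that list with the largest log2 fold changes in size were *Egr3* (−1.12, edgeR adjusted p = 0.0865) and *Egr2* (−0.89, edgeR adjusted p = 0.392), both transcription factors. Without MLPKO mouse 2 these were −0.69 and 0.02. None of the 15 tested p53 targets was called by edgeR, 5 had an unadjusted p under 0.05, DESeq2 called 1 and limma-voom called 0, to be read against the same 21.6% and 9.65%. The members with the largest log2 fold changes in size were *Gdf15*, a stress-induced cytokine (−0.89, edgeR adjusted p = 0.103), and *Btg2*, an antiproliferative gene (−0.75, edgeR adjusted p = 0.154, and −0.36 without MLPKO mouse 2). The medians of these lists were −0.06 for the immediate early genes and −0.01 for the p53 targets.

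**Figure D4:**
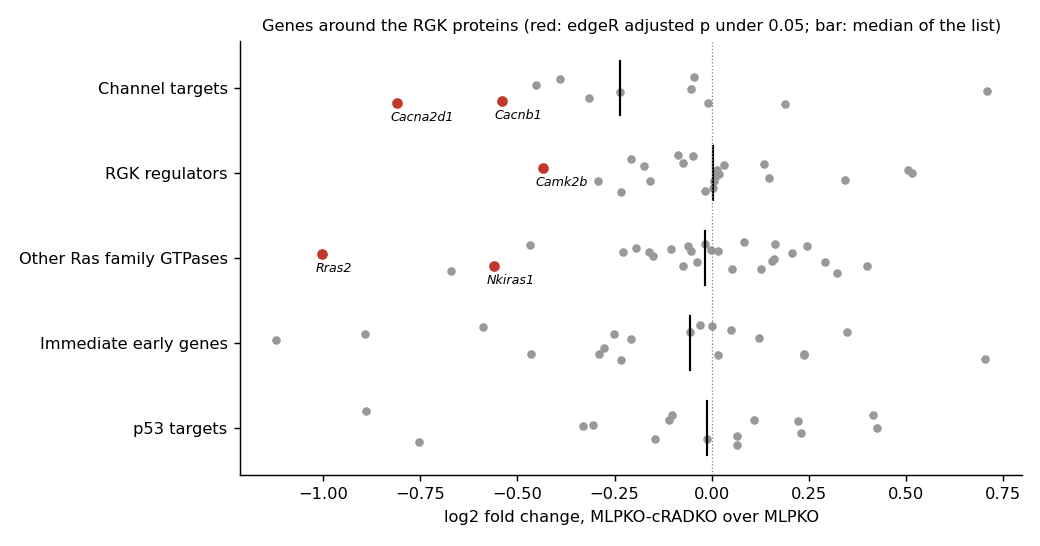
Log2 fold change (MLPKO-cRADKO against MLPKO) of each tested gene in the lists around the RGK family, with the median of each list and the genes called by edgeR marked and named. Of the channel targets, 9 of 11 lie below 0, whereas the regulators spread to both sides (11 above, 10 below).

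Of the 8 tested genes nearest to the RGK loci, edgeR called 0, 2 had an unadjusted p under 0.05, DESeq2 called 2 and limma-voom called 0, beside 21.6% of all tested genes with such a p and 9.65% called by DESeq2. *Cdh16*, a cadherin gene 3666 bases from *Rrad*, had normalized counts of 54.0 ± 15.8 and 88.7 ± 18.5 (log2 fold change 0.71, SE 0.23, edgeR adjusted p = 0.110, DESeq2 adjusted p = 0.0423). *Ciao2b*, an iron-sulphur cluster assembly gene 8479 bases to the other side, had 1564 ± 173 and 1904 ± 107 (log2 fold change 0.28, SE 0.08, edgeR adjusted p = 0.0673, DESeq2 adjusted p = 0.0210). Both neighbours of *Rrad* thus had means in the direction opposite to that of *Rrad*. The neighbours of *Gem* (*Virma* −0.04 and *Pdp1* −0.07), of *Rem1* (*Zcchc3* 0.03 and *H13* −0.11) and of *Rem2* (*Lrp10* −0.07 and *Prmt5* −0.12) had log2 fold changes near 0.

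*Gm33023*, a long noncoding RNA gene on the strand opposite to *Rrad*, spans the whole *Rrad* gene and was singled out after its values were seen. Its normalized counts were 31.1 ± 10.5 in MLPKO and 51.4 ± 15.2 in MLPKO-cRADKO, with overlap (log2 fold change 0.72, SE 0.30, edgeR adjusted p = 0.197 with predicted genes kept in the fit). Whether reads were counted by strand is not given in the sources used here, so reads of this gene and of *Rrad* may not be fully separated. Its raw counts, 18 to 65, were small beside the 6123 to 12769 of *Rrad*. *Defb25*, which overlaps *Rem1* on the opposite strand, had 0 to 4 raw counts.

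From mouse to mouse, the RGK genes did not vary together detectably. Over the 10 mice, *Rrad* and *Gem* had a Pearson r of −0.13 (permutation p = 0.706, adjusted 0.749 over 3 pairs) and a Spearman coefficient of 0.00606 (permutation p = 1, adjusted 1). Without the 2 mice farthest from the median of *Rrad*, r was −0.17, and with the genotype means removed it was 0.36 (permutation p = 0.426, adjusted 0.514). *Rrad* and *Rem1* had an r of −0.33 (permutation p = 0.349, adjusted 0.749) and a Spearman coefficient of −0.31 (permutation p = 0.387, adjusted 1), and r was 0.31 without the 2 farthest mice. *Gem* and *Rem1* had an r of −0.11 (permutation p = 0.749, adjusted 0.749) and a Spearman coefficient of 0.02 (permutation p = 0.972, adjusted 1), and r was 0.35 without the 2 farthest mice.

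The genes whose order over the 10 mice was most like that of each RGK gene were picked from 13452 others, so high values arise from the choice and are given as a description, by Spearman coefficient. For *Rrad* these were *Inpp5a*, an inositol phosphatase (coefficient 0.976), *Zfp821* (coefficient 0.964) and *Drc3* (coefficient 0.952). For *Gem* these were *Igf1*, a growth factor (coefficient 0.964), *Ctif* (coefficient 0.952) and *Skic8* (coefficient 0.939). For *Rem1* these were *Klhl42* (coefficient 0.903), *Sgtb* (coefficient 0.891) and *Pear1* (coefficient 0.879). With genotype means removed, the Pearson r of these 9 genes with their RGK gene lay between 0.709 and 0.960.

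**Figure D5:**
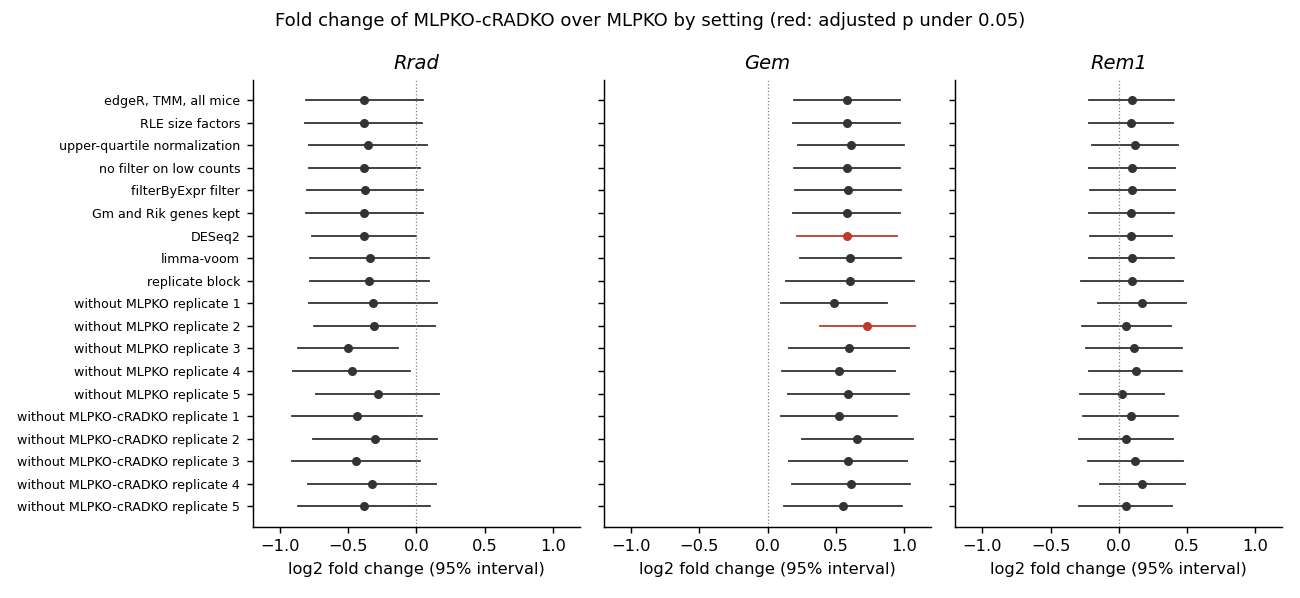
Log2 fold change with its 95% interval for Rrad, Gem and Rem1 under each way of processing the counts and with each mouse left out. The point estimates stay below 0 for Rrad (−0.51 to −0.28), above 0 for Gem (0.49 to 0.73) and near 0 for Rem1 (0.02 to 0.17). The Rrad interval crosses 0 in the edgeR fit of all mice (−0.81 to 0.05). It lies below 0 with DESeq2 (−0.77 to −0.007) and without MLPKO mouse 3 or 4.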

How the data were processed

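Polyadenylated RNA of 10 ventricles was sequenced. The authors deposited raw counts per gene, made with STAR and featureCounts on GRCm39 (FastQC also stands in the submitters' processing notes). Settings for strand and read pairs are not given in the sources used here. Of 60676 genes, 3491 held no value and were left out. Genes were named by GENCODE M39. The filter of the study (over 10 counts in 6 or more of the 10 mice, no Gm or Rik genes) left 13453. Genotypes, taken from the labels, were compared with edgeR 4.0.16 in R 4.3.3 (TMM, quasi-likelihood test, Benjamini-Hochberg adjustment), with DESeq2 1.42.0, the tool of the study, and limma-voom (limma 3.58.1) as alternatives, besides other size factors and filters, a replicate block and leaving out each mouse. Ratios, shares and marker means used exact permutation tests. Intervals and limits cover counting error or the spread of the mice only.

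The members and the gene lists were chosen with earlier results of these data known. Named genes are the RGK genes, *Csrp3*, of each pathway list the called genes or otherwise the 2 with the largest log2 fold changes, the nearest tested gene on each side of an RGK gene, and the 3 genes most like each in Spearman correlation, besides called cell type markers. Others are marked as singled out. Ratios were planned to 3 paralogs and correlations over 6 pairs, and *Rem2*, at 0, left 2 and 3. Another list is not reported here. Protein data of the study were not analysed here.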

Additional observations from a re-analysis of the deposited data

Results flagged for a closer look

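In 72 groups of 5 mice, the highest or lowest mouse was compared with the rest of its group. A mouse far from the others was found in 10 groups, where chance gives about 1 in 20 for independent groups. The groups share the same mice and include genes picked for their values, so this rate is no test here. None of the 10 was a value of an RGK gene. In 6 of the 10 the mouse was MLPKO mouse 2, which had the highest normalized count of its group for *Rras2* (9541, against 3872 to 5341 in the other MLPKO mice), *Egr3* (404.8, against 108 to 189), *Egr2* (308, against 34.7 to 86.5), *Btg2* (3637, against 1116 to 1709), *Cnn1* (2249, against 182 to 342) and *Lrp10* (3003, against 2593 to 2706). MLPKO mouse 3 had the highest count of *Nkiras1* (1891, against 1269 to 1415). MLPKO-cRADKO mouse 1 had the highest counts of *Myl4* (810, against 66.4 to 112) and *Myl7* (188, against 13.5 to 26.2) in its group. *Cnn1*, *Myl4* and *Myl7* were added after their values were seen. MLPKO-cRADKO mouse 3 had the highest count of *Gdf15* in its group (167, against 50.4 to 82.3).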

How the results depend on the processing

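The log2 fold change of *Rrad* stayed negative and uncalled under all 18 alternatives (−0.51 to −0.28, adjusted p 0.122 to 0.498), and that of *Rem1* positive and uncalled under all 18 (0.02 to 0.17). *Gem* was positive under all 18 and called under 2, DESeq2 (0.58, adjusted p = 0.0261) and without MLPKO mouse 2 (0.73, adjusted p = 0.0377), and leaving out each mouse gave 0.49 to 0.73. The within-mouse ratios, the *Rrad* share and the comparison with cardiomyocyte markers kept their direction and their side of 0.05 under the 11 alternatives run for each. The correlation of *Rrad* and *Gem* changed sign to 0.36 with genotype means removed.

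The number of genes called rested on the tool and on single mice, 1298 with DESeq2 against 369 with edgeR and 47 to 826 on leaving out each mouse, with 47 without MLPKO mouse 5, 826 without MLPKO mouse 4, 107 without MLPKO mouse 1 and 142, 105, 100 and 50 without MLPKO-cRADKO mice 2, 3, 4 and 5. With upper-quartile scaling 205 genes were called lower and 175 higher, against 242 and 127. Over the 5 pathway lists, 5 genes were called by edgeR, 18 by DESeq2 and 0 to 8 on leaving out each mouse, with 8 without MLPKO mouse 4, 3 without MLPKO mouse 3, 0 without MLPKO mouse 5 or MLPKO-cRADKO mouse 4 or 5, 1 without MLPKO-cRADKO mouse 2 or 3, and 2 without MLPKO mouse 1 or MLPKO-cRADKO mouse 1. Over the cell type lists the numbers were 5, 11 and 2 to 9, with 9 without MLPKO mouse 4, 2 without MLPKO mouse 5, and 3 without MLPKO mouse 1 or MLPKO-cRADKO mouse 1, 3, 4 or 5. The cause was not tested. Of 522 values for 29 other genes tested singly, 53 lost a call, 13 gained one and 11 changed sign, among them *Myl7* with limma-voom (−0.58) and with the replicate block (−0.56). The other changes of sign came on leaving out a mouse, with ranges for *Myl4* (−0.48 to 1.19), *Myl7* (−1.22 to 0.41), *Egr2* (−1.12 to 0.018), *Virma* (−0.078 to 0.0066), *Pdp1* (−0.15 to 0.0034) and *Zcchc3* (−0.032 to 0.088).

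Mouse numbers recur in both genotypes but name different animals, and same-numbered mice did not deviate together, with correlations from −0.04 to 0.15. With the number as a replicate block, 281 genes were called and the log2 fold changes were −0.35 for *Rrad*, 0.60 for *Gem* (adjusted p = 0.147) and 0.10 for *Rem1*, none of them called. *Gem* and *Rem1* rest on 93 to 271 counts per mouse, and for *Rem2* depth allows only an upper limit.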
